A study of Mus musculus with 10 samples.

Results

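The genes described here form the set of lymphatic endothelial and angiopoietin receptor genes Prox1, Flt4, Lyve1, Tie1, Tek, Angpt2, Vegfc, Reln, Mmrn1 and Foxc2, 10 of the 41388 genes listed for each library. They were chosen by measured values, namely their Experimental-against-Littermate differences and their co-variation over these same 10 libraries. Their differences and correlations are therefore given as descriptions. Counts of those past a threshold stand beside the share of all genes, and nothing is read from them. All 10 had reads in each library and passed the filter on low counts, which left 16830 genes to be tested.

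RNA came from whole ear skin of C57Bl/6 mice, 1 library per mouse, in 6 Experimental and 4 Littermate animals. Both groups had received topical MC903, also called calipotriol, a vitamin D analogue that inflames the skin, at 1 nM each day for 12 days. The series text gives the Experimental mice as NaV1.8+ Il4raF/F, whereas their sample labels give NaV1.8+ Jak1F/F; Littermates are labelled WT. Il4ra encodes a chain of the receptors for IL-4 and IL-13, Jak1 a kinase that acts below them, and NaV1.8 is a sodium channel of nociceptive sensory neurons. The labels name no vessel gene as altered, and they state neither age nor sex.

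Lymphatic vessels drain fluid and immune cells from the skin. The transcription factor PROX1 sets and keeps the identity of their endothelium, in which the receptor VEGFR-3, encoded by Flt4, answers the growth factor VEGF-C. The angiopoietin receptor TIE2, encoded by Tek, and its partner TIE1 act in blood and lymphatic endothelium alike, and ANGPT2 is a ligand of TIE2 whose effect depends on context.

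The totals of the libraries ran from 11520348 to 41935183 counts in Experimental mice and from 12865459 to 14324433 in Littermates, so that 3 counts were worth 0.0715 to 0.260 CPM, counts scaled to a library's total. Il4ra read 130 to 270 CPM in Experimental skin against 184 to 236 in Littermate skin, and Jak1 read 273 to 324 CPM in Experimental skin against 280 to 335 CPM in Littermate skin. Only 2 reads in the whole study fell on Scn10a, the gene of NaV1.8, so that these libraries give no direct check of the neurons. The Y-linked genes were read in every library, with sums of 282 to 340 CPM in Experimental mice against 229 to 301 CPM in Littermates. Littermate 2 and Experimental 6 each weighed heavily on the number of genes called.

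Markers of lymphatic endothelium were looked up in the libraries. Prox1, Flt4, Lyve1, Reln and Mmrn1 were read in all 10 libraries, but they define the label and so cannot check it. Of a further list of 26 lymphatic genes, 23 passed the filter on low counts. In that list, 2 well-known markers were hardly read. Pdpn, which encodes the membrane mucin podoplanin, had 2 counts over all libraries, and Ccl21a, which encodes a chemokine that draws dendritic cells into lymphatics, had 0, which allows up to 0.260 CPM in the shallowest library. None of the exonic bases of these 2 genes overlap another gene in the files, but sequence shared with transcripts of other genes was not checked for them. The reason for their low counts was not tested. Keratinocyte markers summed to 34088 to 41297 CPM in Experimental skin against 37226 to 41786 CPM in Littermate skin.

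RefSeq promoter windows (GRCm38.p6) were matched for 7 of the 10 genes, and Lyve1, Angpt2 and Foxc2 had none. The 250 bases before the start are shown for the 3 genes whose difference between groups lay furthest from 0 relative to its error, Prox1, Flt4 and Tie1, and for Tek, the receptor partner of Tie1, whose mean was higher in Experimental mice. Each is written 5′ to 3′ along the gene with its CG dinucleotides in capitals, from chr1:190170828-190171077 (minus strand) for Prox1, chr11:49609429-49609678 (plus) for Flt4, chr4:118489850-118490099 (minus) for Tie1 and chr4:94739039-94739288 (plus) for Tek.
Prox1: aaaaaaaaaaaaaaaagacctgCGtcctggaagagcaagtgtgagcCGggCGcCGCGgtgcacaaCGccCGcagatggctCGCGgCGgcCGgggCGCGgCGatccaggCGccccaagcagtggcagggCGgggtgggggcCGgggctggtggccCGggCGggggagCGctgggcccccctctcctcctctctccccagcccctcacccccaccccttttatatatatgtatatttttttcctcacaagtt
Flt4: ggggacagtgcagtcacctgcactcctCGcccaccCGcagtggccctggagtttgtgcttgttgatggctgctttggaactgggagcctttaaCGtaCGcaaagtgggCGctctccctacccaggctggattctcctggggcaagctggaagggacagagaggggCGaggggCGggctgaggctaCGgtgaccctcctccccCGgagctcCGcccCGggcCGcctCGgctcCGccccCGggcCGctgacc
Tie1: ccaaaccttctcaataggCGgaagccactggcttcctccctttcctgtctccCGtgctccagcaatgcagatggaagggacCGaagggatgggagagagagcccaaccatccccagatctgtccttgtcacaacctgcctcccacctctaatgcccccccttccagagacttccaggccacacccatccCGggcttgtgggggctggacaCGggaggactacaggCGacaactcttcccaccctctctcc
Tek: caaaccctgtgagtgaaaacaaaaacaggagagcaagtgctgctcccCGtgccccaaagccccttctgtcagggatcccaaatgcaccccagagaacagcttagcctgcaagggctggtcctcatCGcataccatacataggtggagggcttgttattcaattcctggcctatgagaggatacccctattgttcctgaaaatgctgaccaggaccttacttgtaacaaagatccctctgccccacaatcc

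The windows of Prox1 and Flt4 were rich in CG, with 20 and 16 dinucleotides and observed-to-expected ratios of 0.762 and 0.547. Those of the angiopoietin receptors were poor in it, with 6 dinucleotides and a ratio of 0.280 for Tie1 and 2 and 0.126 for Tek. The median over 32851 promoters was 0.374. A second RefSeq start of Prox1 had 0.563, and the remaining windows had 0.987 for Reln, 0.958 for Vegfc and 0.268 for Mmrn1. The RefSeq start lay 113 bases from the gene start in the files for Prox1, 416 for Flt4, 212 for Tie1, 0 for Tek and 19341 for Mmrn1.

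Letters known from endothelial enhancers were searched on both strands of the same windows. AGGAAG, a core read by ETS factors, stood 219 bases before the Tie1 start on the strand opposite to the gene. It is held by 29.5% of all promoters. AACAAT, read by SOX factors, stood 63 bases before the Tek start on the strand opposite to the gene. It also stood 231 bases before the Mmrn1 start, on that gene's own strand. It is held by 9.42% of all promoters. CCGGAA, another ETS core with 12.0% of promoters, stood 185 bases before the Reln start on the strand opposite to the gene. AGATAA for GATA factors (9.99% of promoters) and TGTTTAC for forkhead factors (3.17%) had no match in any of the windows, and the windows of Prox1, Flt4 and Vegfc held none of the 5 motifs.

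Per length of transcript, Lyve1 was the most abundant, and Foxc2 and Prox1 shared the lowest levels. On the authors' deposited RPKM scale, reads scaled by library total and gene length, Lyve1 had a level of 14.0 ± 1.23 in Experimental mice (SD, n = 6) and 15.3 ± 2.84 in Littermates (SD, n = 4). Mmrn1 followed at 9.54 ± 0.712 RPKM in Experimental mice (SD, n = 6) and 9.12 ± 0.398 RPKM in Littermates (SD, n = 4). Tie1 and Angpt2 came next, with means over all 10 libraries of 6.52 ± 1.27 and 5.72 ± 1.01 RPKM (SD, n = 10).

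Tek, at 5.44 ± 0.580 RPKM over the 10 libraries, could not be set apart from Angpt2, which exceeded it in 5 of 10 libraries. Below them stood Reln at 2.99 ± 0.240, Vegfc at 2.73 ± 0.386 and Flt4 at 2.40 ± 0.426 RPKM. Foxc2 and Prox1 closed the order at 0.828 ± 0.363 and 0.735 ± 0.158 RPKM, each above the other in 5 of 10 libraries. The order held in 10 of 10 libraries between Lyve1 and Mmrn1, Tek and Reln, and Flt4 and Foxc2, in 9 between Mmrn1 and Tie1 and between Tie1 and Angpt2, in 8 between Reln and Vegfc, and in 7 between Vegfc and Flt4.

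Set between the groups, 7 of the 10 genes had a lower fitted mean in Experimental skin and 3 a higher one. The median log2 fold change of the set was -0.13, beside -0.00 over all genes tested, of which 8489 were negative and 8341 positive. In whole skin, fewer cells of a type and less RNA per cell cannot be told apart. edgeR's quasi-likelihood test called none of the 10 at an adjusted p under 0.05, a rule that took 3 genes in all (0.0178% of those tested). At an unadjusted p under 0.05, Prox1, Flt4 and Tie1 passed, where 11.8% of all tested genes did.

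The threshold of DESeq2, run as an alternative, took in 2 of the set (Prox1 and Flt4) and 1.35% of all genes, and that of limma voom with quality weights took in 0 of the set and 0.339% of all genes. Since the same difference in the same libraries chose the set, these counts are no evidence for its members.

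**Figure D1:**
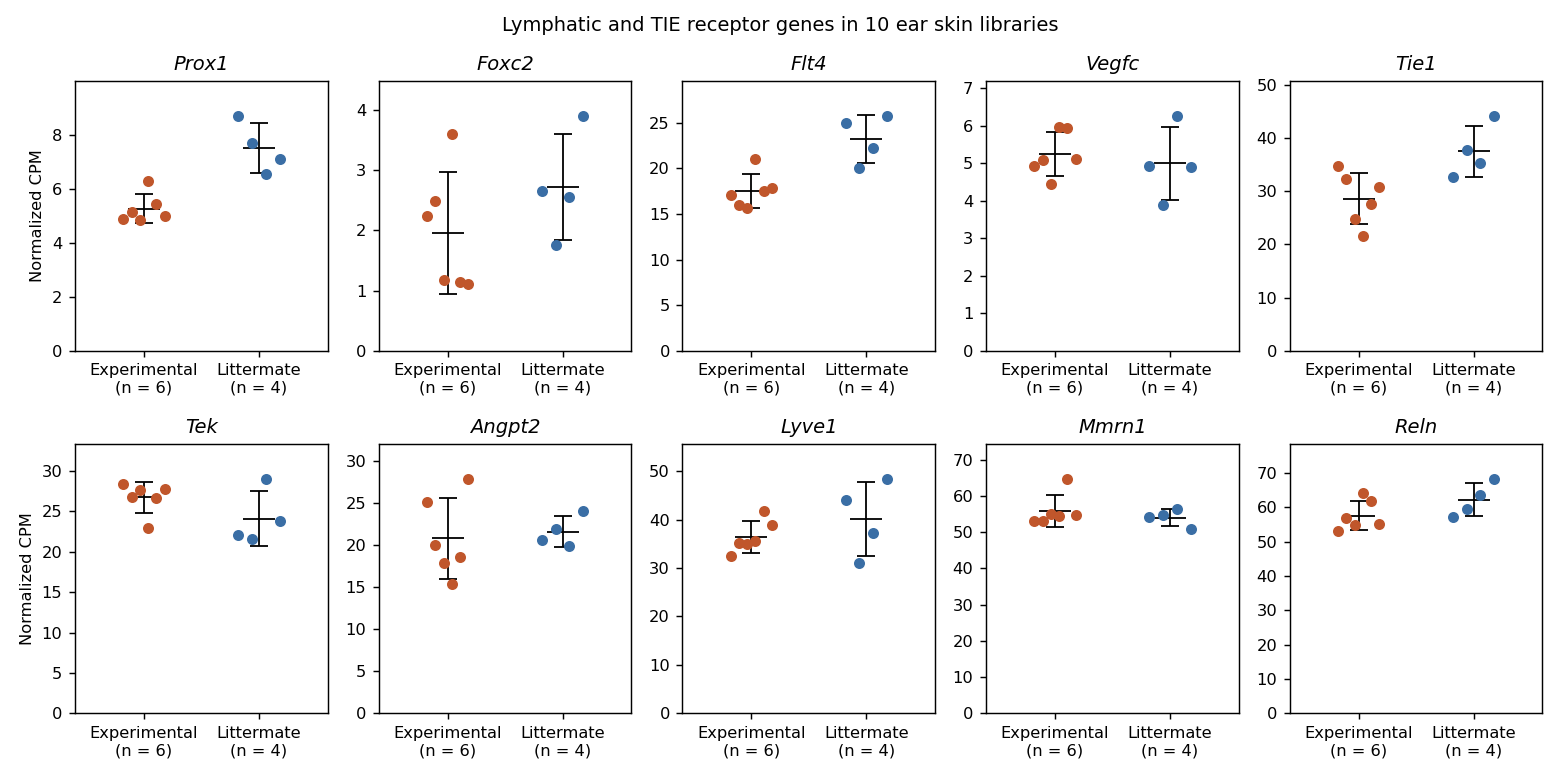
Normalized CPM (y axis, from 0) of the 10 genes in each library, with Experimental mice (n = 6, orange) left of Littermates (n = 4, blue), and bars for the mean and SD. All Experimental points of Prox1 lie below all Littermate points, while the groups overlap in every other gene shown.

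The transcription factors came first. Prox1 (ENSMUSG00000010175, mm10 chr1:190118035-190170714) had a lowest, median and highest level of 4.85, 5.07 and 6.29 normalized CPM in Experimental libraries, against 8.68, 7.69, 6.54 and 7.09 in Littermates 1 to 4. The groups did not overlap: the highest Experimental library stood just under the lowest Littermate. A complete separation in this direction was met by 228 genes, 1.35% of those tested. The means were 5.26 ± 0.545 CPM in Experimental mice (SD, n = 6) and 7.50 ± 0.918 CPM in Littermates (SD, n = 4), which is a log2 fold change of -0.52 (SE 0.12, 95% interval -0.78 to -0.26).

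Of the exonic bases of Prox1, 1.59% lie over the antisense gene Prox1os, whose reads cannot be told apart without strand. Leaving out each library in turn moved the Prox1 fold change between -0.58 and -0.44.

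Foxc2 (ENSMUSG00000046714, chr8:121116171-121118895), a forkhead factor of lymphatic valves and collecting vessels, was the least read gene of the set, with 13 to 92 counts per library. Its levels were 1.11, 1.71 and 3.59 CPM (lowest, median, highest) in Experimental mice, against 2.66, 1.76, 2.56 and 3.90 CPM in Littermates 1 to 4. The Experimental libraries fell into 3 between 1.11 and 1.17 CPM and 3 between 2.24 and 3.59, and the groups overlapped. The log2 fold change of -0.50 had the widest interval of the set, from -1.23 to 0.24. It was -0.26 without Littermate 4, and became 0.15 with the level of Y-linked genes as a covariate.

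The growth factor receptor and its ligand differed in pattern. Flt4 (ENSMUSG00000020357, chr11:49609263-49652739) had 15.7, 17.3 and 21.0 CPM as lowest, median and highest Experimental level, against 25.0, 20.01, 22.3 and 25.7 CPM in Littermates 1 to 4. All Experimental libraries but the fourth lay below all Littermates, and the fourth lay above Littermate 2 alone. The means were 17.5 ± 1.89 CPM in Experimental mice (SD, n = 6) and 23.2 ± 2.61 CPM in Littermates (SD, n = 4), and the log2 fold change was -0.41 (SE 0.10, interval -0.63 to -0.20).

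Leaving out each library in turn moved the Flt4 fold change between -0.48 and -0.35. Without Littermate 2 and Experimental 6 together, the log2 fold changes were -0.49 for Prox1, -0.48 for Flt4 and -0.40 for Tie1.

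Vegfc (ENSMUSG00000031520, chr8:54077532-54186454), which encodes the main ligand of VEGFR-3, spanned 4.44 to 5.96 CPM in Experimental libraries with a median of 5.10, against 4.93, 3.88, 6.26 and 4.91 CPM in Littermates 1 to 4. The Experimental range lay wholly inside the Littermate range. Its log2 fold change was 0.05, with an interval from -0.26 to 0.37. It was -0.05 without Littermate 2 and 0.19 without Littermate 3, so that its sign rested on single libraries.

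The ratio of ligand to receptor, taken on the RPKM scale, did not overlap between the groups, while the ligand alone did. It carries the Flt4 difference, which helped to choose the set. How many other gene ratios separate as well was not tested, here or for the ratios below. Vegfc over Flt4 was 1.31 ± 0.102 in Experimental mice (SD, n = 6), with a range of 1.24 to 1.49, and 0.945 ± 0.191 in Littermates (SD, n = 4), with a range of 0.835 to 1.23. Littermate 3, at 1.23, stood next to the Experimental libraries, and the other 3 lay between 0.835 and 0.864.

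The angiopoietin receptors also parted from each other. Tie1 (ENSMUSG00000033191, chr4:118471191-118490061), a receptor with no high-affinity ligand of its own that modifies TIE2 signalling, had 21.6, 29.2 and 34.7 CPM as lowest, median and highest Experimental level, against 32.7, 37.7, 35.3 and 44.1 CPM in Littermates 1 to 4. Experimental 1 was the only one of its group above any Littermate, namely Littermate 1. The means were 28.6 ± 4.88 CPM in Experimental mice (SD, n = 6) and 37.5 ± 4.88 CPM in Littermates (SD, n = 4), a log2 fold change of -0.39 (SE 0.12, interval -0.65 to -0.12).

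Tek (ENSMUSG00000006386, chr4:94739289-94874976), which encodes TIE2, ran from 22.9 to 28.4 CPM in Experimental mice with a median of 27.2, against 22.1, 21.5, 29.0 and 23.8 CPM in Littermates 1 to 4. The ranges overlapped, with Experimental 4 low in its group and Littermate 3 high in its own. The log2 fold change was 0.15 with an interval from -0.06 to 0.36, and 0.26 without Littermate 3.

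Tek over Tie1 on the RPKM scale stood at 0.991 ± 0.127 in Experimental skin (SD, n = 6) and 0.680 ± 0.133 in Littermate skin (SD, n = 4), and 5 of 6 Experimental libraries were above all Littermates. Experimental 1, at 0.855, lay just under Littermate 3, at 0.857.

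Angpt2 (ENSMUSG00000031465, chr8:18690263-18741562), the ligand stored and released by endothelium, had the wider spread in Experimental mice, from 15.4 to 27.9 CPM with a median of 19.3, against 20.7, 21.99, 19.9 and 24.1 CPM in Littermates 1 to 4. Of the 6 Experimental libraries, 3 lay below all Littermates and 2 above them all. The log2 fold change was -0.05 (interval -0.37 to 0.26), and the SD was 4.77 CPM in Experimental mice and 1.83 CPM in Littermates. The fold change was -0.15 without Experimental 6 and 0.02 without Experimental 4, the lowest and highest values with 1 library left out.

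Next came the surface and secreted products of lymphatic endothelium. Lyve1 (ENSMUSG00000030787, chr7:110850607-110862953), a hyaluronan receptor also made by some tissue macrophages, ran from 32.4 to 41.7 CPM in Experimental mice with a median of 35.3, against 44.0, 31.0, 37.3 and 48.4 CPM in Littermates 1 to 4. Every Experimental value lay within the Littermate range, and the log2 fold change was -0.14 with an interval from -0.38 to 0.09. It was -0.25 without Littermate 2, -0.09 without Littermate 1 and -0.03 without Littermate 4.

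Mmrn1 (ENSMUSG00000054641, chr6:60924976-60989378), which encodes multimerin 1 of endothelium and platelets, was the steadiest gene of the set. It ran from 52.9 to 64.7 CPM in Experimental mice with a median of 54.5, against 54.3, 54.6, 56.4 and 50.8 CPM in Littermates 1 to 4. Experimental 5 alone lay above all Littermates, and the log2 fold change was 0.04 (interval -0.11 to 0.20), or -0.02 after GC correction. With 1 library left out it ran from -0.00 without Experimental 5 to 0.07 without Littermate 3.

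Reln (ENSMUSG00000042453, chr5:21884454-22344702), which encodes the secreted glycoprotein reelin made by lymphatic endothelium, ran from 53.1 to 64.1 CPM in Experimental mice with a median of 55.9, against 57.3, 59.5, 63.6 and 68.3 CPM in Littermates 1 to 4. Of 6 Experimental libraries, 4 lay below all Littermates, and the log2 fold change was -0.11 with an interval from -0.27 to 0.05, and -0.05 without Littermate 4. An antisense gene, Gm10475, covers 1.24% of its exonic bases.

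Prox1 and Flt4 were also set over Mmrn1, the steadiest gene of the set in these same libraries. Dividing by a gene that varies little leaves most of their difference in place, so these ratios are no separate evidence. Prox1 over Mmrn1 in RPKM was 0.0665 ± 0.00789 in Experimental mice (SD, n = 6) and 0.0977 ± 0.0126 in Littermates (SD, n = 4), with the highest Experimental library at 0.0813 and the lowest Littermate at 0.0815. Flt4 over Mmrn1 was 0.225 ± 0.0291 in Experimental mice and 0.308 ± 0.0450 in Littermates, with 5 of 6 Experimental libraries below all Littermates.

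Over Lyve1, both Prox1 and Flt4 overlapped between the groups. Prox1 over Lyve1 was 0.0453 ± 0.00556 in Experimental mice (SD, n = 6) and 0.0599 ± 0.0134 in Littermates (SD, n = 4), with 4 of 6 Experimental libraries below all Littermates. Flt4 over Lyve1 was 0.153 ± 0.0201 in Experimental mice and 0.185 ± 0.0152 in Littermates, with 5 of 6 below.

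GC content and the level of other endothelium moved with some of these values. The libraries leaned by GC content: the median deviation of genes with at least 55% GC minus that of genes under 45% ran from -0.20 to 0.02 (log2) in Experimental libraries and from -0.06 to 0.26 in Littermates. The median log2 fold change was -0.10 for the genes with at least 55% GC and 0.07 for those under 45%. Flt4 and Tie1 have GC contents of 56.5% and 57.6%, whereas Prox1 has 45.3%.

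After a GC correction per library the log2 fold change of Prox1 was -0.56 (interval -0.81 to -0.30), that of Flt4 was -0.32 (-0.52 to -0.13) and that of Tie1 was -0.28 (-0.54 to -0.02). With the level of 24 blood and general endothelial genes as a covariate, the values were -0.57 (-0.85 to -0.29) for Prox1, -0.40 (-0.65 to -0.16) for Flt4 and -0.24 (-0.42 to -0.05) for Tie1. With the level of Y-linked genes as a covariate they were -0.53 for Prox1 and -0.31 for Flt4, and for Tie1 -0.21 with an interval from -0.51 to 0.09. All 4 Y-linked genes had a higher fitted mean in Experimental mice, and their median GC content was 36.2%. Whether this covariate follows the group or the GC lean was not tested.

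**Figure D2:**
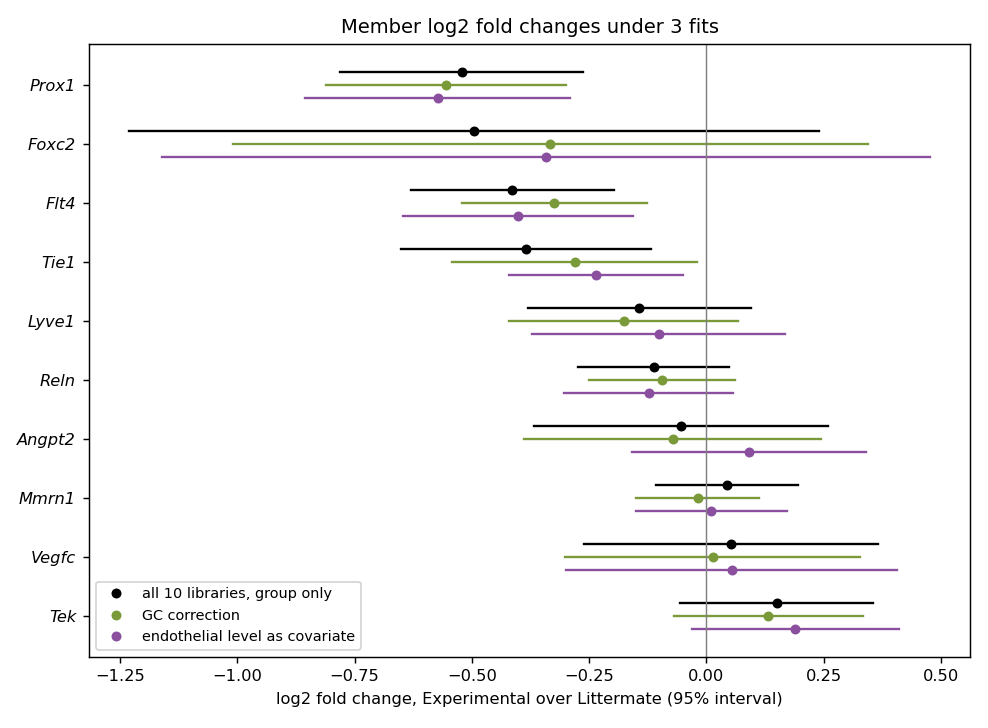
Log2 fold change of each gene, Experimental over Littermate, with its 95% interval (x axis), in the fit with group only (black), after GC correction (green) and with the endothelial level as covariate (purple). Prox1, Flt4 and Tie1 stay below 0 in these 3 fits, and Tie1 moves from -0.39 to -0.24 when the endothelial level is in the model.

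The genes did not vary as 1 block from mouse to mouse. After group means were subtracted, the 45 pairs among the 10 genes had a median Pearson r of 0.09 over 10 libraries, and 27 pairs were positive. The same genes had a median r of -0.01 with the other 16820 tested genes. An r of at least 0.5 was reached by 7 pairs, or 15.6%, beside 10.1% of the pairs of a member with another gene. These libraries share 1 tissue and differ in depth and GC lean, and the values are descriptive.

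The strongest relation among the 45 pairs was negative, between the master regulator Prox1 and the receptor gene Tek. It had r = -0.88 and rho = -0.83 (n = 10 libraries). The r was -0.86 without the 2 libraries farthest from the median of Prox1 and -0.85 after GC correction. Co-variation helped to choose the set, so its extreme pair is only described. Prox1 had 62 to 203 counts per library, and the part of counting error in this relation was not tested. Experimental 4 had the highest Prox1 and the lowest Tek of its group, and Littermate 3 had the lowest Prox1 and the highest Tek of its own.

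Tie1 and its pathway ligand Angpt2 moved together, with r = 0.81 and rho = 0.85 (n = 10), and r = 0.63 without the 2 farthest libraries. Here and below, the 2 farthest libraries are those of the gene named first in a pair, which narrows the range of that gene. Flt4 and Lyve1 had r = 0.62 and rho = 0.73, and r = 0.78 without the 2 farthest. Vegfc and Reln had r = 0.58, and 0.69 without the 2 farthest.

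Prox1 and Flt4, whose differences between groups were largest relative to their errors, had r = 0.55 and rho = 0.44 within them. This r was 0.69 after GC correction but -0.17 once the 2 farthest libraries were left out, so that it was not steady. Over all libraries without subtracting group means their r was 0.87. Flt4 with Foxc2 (r = 0.61), with Reln (0.56) and with Vegfc (0.54) likewise dropped, to 0.22, 0.28 and 0.18, without the 2 farthest. Prox1 and Tie1 had r = -0.59, which became 0.08.

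**Figure D3:**
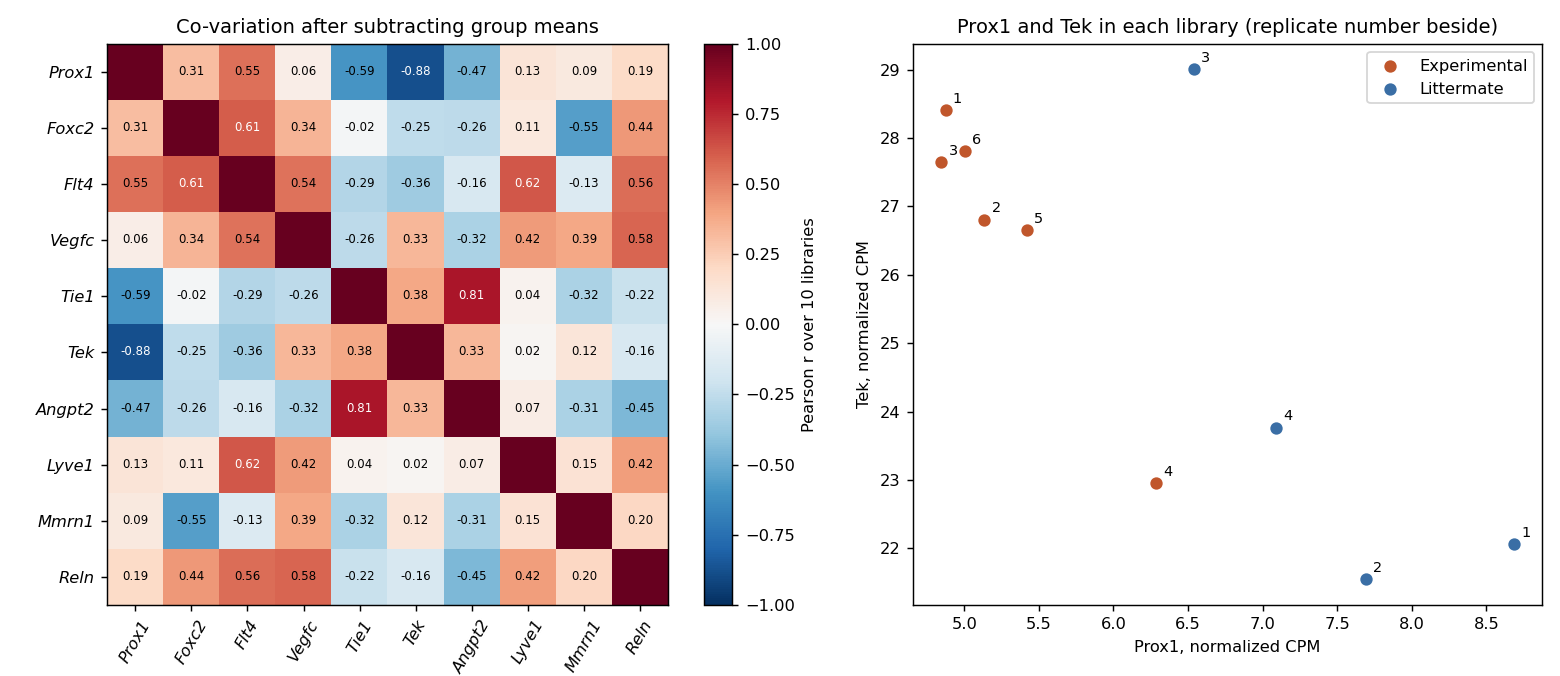
Left, Pearson r between the 10 genes over 10 libraries after subtracting group means (colour scale from -1 to 1). Right, normalized CPM of Tek against Prox1 in each library, Experimental in orange and Littermate in blue, with replicate numbers; Tek is low where Prox1 is high within each group, as in Experimental 4 at 22.9 CPM of Tek.

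Among the genes whose library-to-library pattern was most like the mean of the set, by Pearson r over 10 libraries, were Ppp2r1a (0.92), Rapgef1 (0.91), Cpsf1 (0.91), Grid2ip (0.90), Pkmyt1 (0.90), Pip4k2b (0.90), Nkain1 (0.89), Ikzf3 (0.88) and Cdh3 (0.87). None of these is a member of the vessel lists. The mean of the set itself was lowest in Littermate 2 and Experimental 3, at -0.69 and -0.63 SD, and highest in Littermate 4 and Experimental 5, at 0.51 and 0.41 SD.

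The other genes of the same pathways were not picked for how they moved in these samples, although earlier results of the data were known. No gene of the lymphatic, VEGF, angiopoietin, reelin or blood endothelial lists was called by edgeR over all genes. Of 23 tested genes of the lymphatic list, 20 had a negative and 3 a positive log2 fold change, with a median of -0.10, and 5 lower and 1 higher gene had an unadjusted p under 0.05. That is beside 11.8% of all genes, 1363 of them lower and 615 higher.

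The lowest p in the lymphatic list belonged to Nfatc1, a transcription factor of lymphatic valves, at 59.0 ± 2.65 CPM in Experimental mice (SD, n = 6) and 76.0 ± 12.0 CPM in Littermates (SD, n = 4), with a fitted log2 change of -0.36 (edgeR, adjusted p = 0.121). Piezo1, the mechanosensitive channel needed for valves, stood at -0.38 (edgeR, adjusted p = 0.175), Klf2, a factor induced by flow, at -0.56 (edgeR, adjusted p = 0.260) and Sox18, which switches on Prox1 in the mouse embryo, at -0.50 (edgeR, adjusted p = 0.260). Piezo1, Klf2 and Sox18 have GC contents of 59.0%, 61.6% and 60.9%. Leaving out Littermate 2 raised the calls over all genes from 3 to 343. In that fit Nfatc1 and Piezo1 passed as lower, and Cd9, a tetraspanin of many cells, as higher at 0.35 (edgeR, adjusted p = 0.00791, 0.0220 and 0.0214). Littermate 2 was the only Littermate with a negative GC lean, at -0.06, and the part of GC in these calls was not tested.

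In the VEGF family, 6 of 8 genes were negative with a median of -0.09. Vegfb, a ligand of VEGFR-1, had a fitted log2 change of -0.48 (edgeR, adjusted p = 0.179). It passed without Littermate 2, where 343 genes passed in all, at -0.60 (edgeR, adjusted p = 0.0267). Vegfd, the other ligand of VEGFR-3, stood at -0.24 (edgeR, adjusted p = 0.537). Vegfa stood at -0.14 (edgeR, adjusted p = 0.730) and Flt1, which encodes VEGFR-1, also at -0.14 (edgeR, adjusted p = 0.620).

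In the angiopoietin and TIE pathway, 8 of 10 genes were negative with a median of -0.12. Akt1, a kinase below TIE2, read 152 ± 9.92 CPM in Experimental mice (SD, n = 6) and 181 ± 10.2 CPM in Littermates (SD, n = 4), with a fitted log2 change of -0.25 (edgeR, adjusted p = 0.167; DESeq2, adjusted p = 0.0488). Foxo1, the factor that AKT holds out of the nucleus and that drives Angpt2, stood at -0.42 (edgeR, adjusted p = 0.305). Itga5, an integrin subunit, stood at -0.39 (edgeR, adjusted p = 0.328). It passed without Littermate 2 and Experimental 6 together, where 563 genes passed in all, at -0.60 (edgeR, adjusted p = 0.0132). Dok2, an adaptor bound by TIE2, stood at -0.13 (edgeR, adjusted p = 0.611).

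All 4 genes of the reelin pathway were negative, with a median of -0.24. Dab1, the adaptor that carries the reelin signal, read 8.20 ± 1.09 CPM in Experimental mice (SD, n = 6) and 10.8 ± 1.80 CPM in Littermates (SD, n = 4), with a fitted log2 change of -0.39 (edgeR, adjusted p = 0.265). The receptors Lrp8 and Vldlr stood at -0.35 and -0.14 (edgeR, adjusted p = 0.362 and 0.692), and the kinase Fyn at -0.03 (edgeR, adjusted p = 0.900).

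Blood and general endothelium leaned the same way: 19 of 24 genes were negative, with a median of -0.09 and sums of 660 to 813 CPM in Experimental mice against 731 to 914 CPM in Littermates. Eng, which encodes the TGF-beta co-receptor endoglin, read 31.6 ± 4.16 CPM in Experimental mice (SD, n = 6) and 47.6 ± 11.3 CPM in Littermates (SD, n = 4), with a fitted log2 change of -0.60 (edgeR, adjusted p = 0.112). DESeq2 called it at an adjusted p of 0.0136, as it did Nfatc1 at 0.0378. Without Littermate 2, where 343 genes passed in all, Eng passed at -0.70 (edgeR, adjusted p = 0.0190). Without Littermate 2 and Experimental 6, where 563 passed, it stood at -0.76 (edgeR, adjusted p = 0.00975). Plvap, Vwf and Robo4 stood at -0.34, -0.30 and -0.30 (edgeR, adjusted p = 0.368, 0.424 and 0.428).

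Markers of other cell types were read in the same fit, and edgeR called none of them. Macrophage markers, 7 of 10 negative with a median of -0.17, summed to 1608 to 2316 CPM in Experimental skin against 1943 to 2251 CPM in Littermate skin, with the transcription factor gene Maf at -0.30 (edgeR, adjusted p = 0.217). Pericyte and smooth muscle markers, 8 of 10 negative with a median of -0.08, summed to 715 to 890 CPM in Experimental skin against 848 to 1088 CPM in Littermate skin. Their lowest p values belonged to Notch3 at -0.49 and Cspg4 at -0.45 (edgeR, adjusted p = 0.188 and 0.216). Notch3 passed without Littermate 2, where 343 genes passed in all, at -0.60 (edgeR, adjusted p = 0.0267). The part of these cells in the vessel values was not tested.

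Skeletal muscle had the lowest list median, -0.31 with 9 of 10 genes negative, and sums of 12963 to 18776 CPM in Experimental mice against 11563 to 25404 CPM in Littermates. Tnnc2 and Myh1 stood at -1.48 and -0.47 (edgeR, adjusted p = 0.107 and 0.266). Fibroblast markers had a median of -0.09, with Col1a1 at -0.53 and Col1a2 at -0.41 (edgeR, adjusted p = 0.317 and 0.354). Cartilage markers had a median of -0.17, with Col2a1 at -0.95 and Matn3 at 0.61 (edgeR, adjusted p = 0.255 and 0.523).

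Platelet markers, relevant to Mmrn1, summed to 82.7 to 119 CPM in Experimental mice against 80.5 to 103 CPM in Littermates, and 5 of 8 were tested, with Itga2b at -0.15 and Pf4 at 0.15 (edgeR, adjusted p = 0.617 and 0.701). Schwann cell markers had a median of -0.09, with Sox10 at -0.26, and keratinocyte markers 0.02, with Dsp at -0.18 and Trp63 at 0.09. edgeR called no gene in any of these lists. The Y-linked genes had a median of 0.18, with Kdm5d at 0.17 and Eif2s3y at 0.20.

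**Figure D4:**
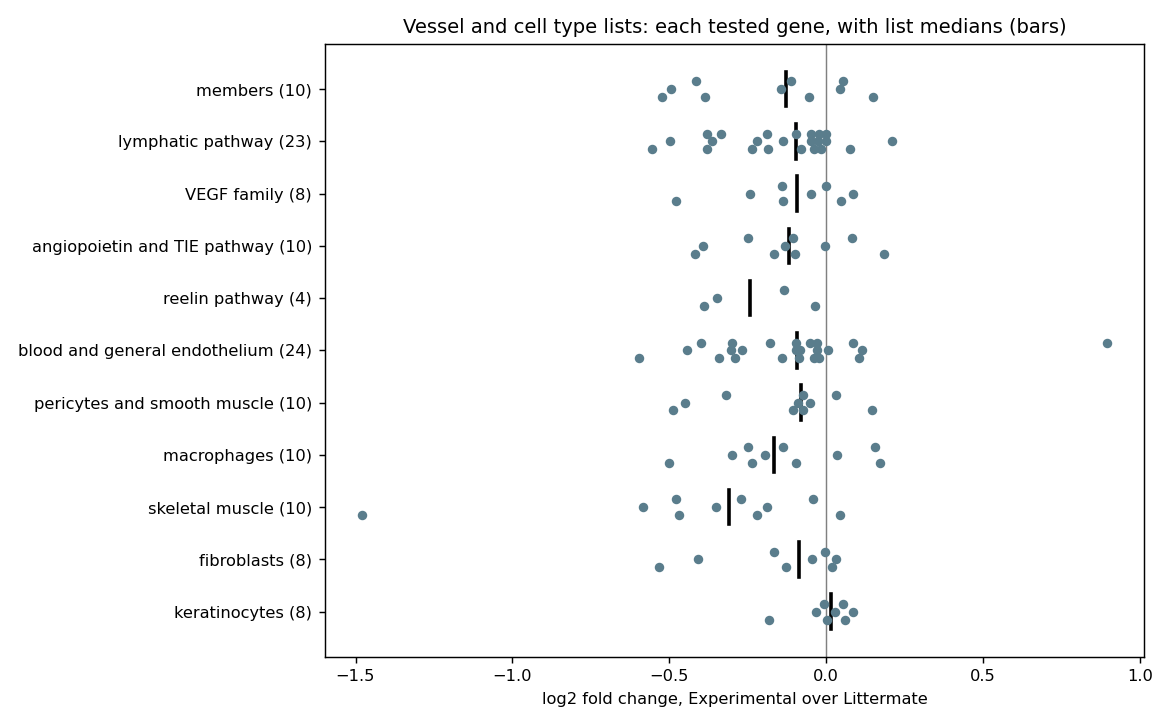
Log2 fold change, Experimental over Littermate (x axis), of each tested gene in the set and in 10 lists, with list medians as vertical bars and the number tested in brackets. The medians run from -0.31 for skeletal muscle to 0.02 for keratinocytes, and that of the set is -0.13.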

How the data were processed

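RNA of whole ear skin was measured in 6 Experimental and 4 Littermate mice. Per the labels' protocols, rRNA-depleted total RNA was primed with random hexamers and read as single 50-base reads, with no strand marking described. STAR 2.0.4b, Subread, featureCounts 1.4.5 and mm10 are named per the submitters' processing notes; the annotation release and strand setting were not given in the sources used here. Per the file headers, each file gives a read count, a CPM and an RPKM value per gene as the authors deposited them. The deposited counts entered every test, the deposited RPKM served for levels and ratios, and the deposited CPM was not tested.

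Symbols were matched to 97.3% of the identifiers. edgeR 4.0.16 in R 4.3.3 (TMM, filterByExpr, robust quasi-likelihood test, two-sided, Benjamini-Hochberg over 16830 genes, threshold 0.05) was fitted with group alone over all 10 libraries. Normalized CPM uses TMM factors of 0.984 to 1.02. The common biological coefficient of variation was 12.8%. Alternatives used DESeq2 1.42.0, limma 3.58.1 voom, other size factors and filters, GC correction (GC known for 99.3% of tested genes), covariates, the replicate number, and libraries left out. The edgeR steps were also run on simulated counts. These had the same biological coefficient of variation for every gene and no GC lean. That run therefore does not test how such features act in these libraries.

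Correlations used log2 CPM (prior count 2). The members and lists were chosen with earlier results of these data known. Named were all 10 members, the 4 genes of each vessel list and the 2 of each other list with the lowest p where none passed, and the 10 most alike genes. Some genes that this rule takes are not reported here. Cd9 is named outside this rule, after its values were seen. The labels call the controls Littermates but do not say which mice shared a litter or cage. The p-values set the group difference against the spread between these mice, taken as independent. Whether the mice are independent could not be checked. Floors cover counting error only.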

Additional observations from a re-analysis of the deposited data

Results flagged for a closer look

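In 20 groups of values, each of the 10 genes in each group of mice, a library far from the others of its group was looked for, and chance alone marks about 1 in 20. Tek in Experimental 4 stood at 22.9 CPM, below the other 5 Experimental libraries at 26.7 to 28.4 CPM, a gap of 0.679 of the group's whole range. Mmrn1 in Experimental 5 stood at 64.7 CPM, above the other 5 at 52.9 to 55.03 CPM, a gap of 0.822 of the range. Experimental 4 and 5 are the shallowest libraries, with 11986925 and 11520348 counts. Without Experimental 5 the log2 fold change of Mmrn1 was -0.00, and without Experimental 4 that of Tek was 0.20.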

How the results depend on the processing

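The number of genes called over all genes, 3 in the reported fit, depended on the processing: it was 78 with no filter on low counts, 227 with DESeq2, 57 with voom and quality weights, 67 with the replicate block, 11 with the replicate block and GC correction, and 563 without Littermate 2 and Experimental 6 together. Leaving out 1 library gave 3 to 343, with 343 without Littermate 2, 28 without Experimental 6 and 8 without Littermate 3. Of the 10 genes described, 0 passed in the reported fit, 2 with DESeq2 (Prox1 and Flt4), 1 without both libraries (Flt4), and 0 to 1 with 1 library left out. In the vessel lists 0 were called, against 3 with DESeq2, 6 without both libraries and 0 to 5 with 1 library left out. In the other lists 0 were called, against 2 with no filter (Tnnc2 among them), 2 with DESeq2 (Tnnc2 among them), 1 with the replicate block (Col2a1), 2 without both libraries (Notch3 among them) and 0 to 2 with 1 left out. The cause of these moves was not tested.

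The median log2 fold change of the 10 genes, -0.13, ran from -0.19 to -0.042 with 1 library left out, with -0.042 without Littermate 4. The median pairwise r of 0.09 was -0.018 by Spearman's measure and ran from 0.02 to 0.16 with 1 library left out. Prox1, Flt4 and Tie1 kept a negative sign in all 22 alternative fits, between -0.58 and -0.44, -0.48 and -0.31, and -0.44 and -0.21. The interval of Tie1 ran from -0.51 to 0.09 with the Y-linked covariate. These fits reuse the libraries whose differences chose the set, so a kept sign is no separate evidence. How many of all genes keep their sign was not tested. Mmrn1 was -0.05 with the replicate block and GC correction and -0.06 with the Y-linked covariate, and Foxc2 was 0.15 with that covariate. Correlations of deviations between libraries of the same replicate number were 0.0326, -0.0196, 0.0910 and -0.0209. So few values cannot settle whether the numbers pair the mice. Experimental 5 and 6 have no Littermate of their number, so they do not inform the group difference in the block fits. The block result is therefore not read as a weaker or stronger effect. Foxc2 had as few as 13 counts, which limits its precision.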

Other observations

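Within the groups, the 10 genes also differed in how they went with other cell types of the skin (median Pearson r with each gene of a marker list, over 10 libraries after subtracting group means, as a description). Angpt2 had a median r of 0.72 with the macrophage markers and Tie1 0.48, whereas Reln had -0.56. With blood endothelium, Tie1 had 0.49, Angpt2 0.44 and Prox1 -0.29. With skeletal muscle markers, Mmrn1 had 0.51, Tek 0.46 and Vegfc 0.41, against -0.37 for Prox1.

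Angpt2 over Angpt1, which encodes the ligand that activates TIE2, was 5.24 ± 1.36 on the RPKM scale in Experimental mice (SD, n = 6) and 6.28 ± 1.38 in Littermates (SD, n = 4), and the groups overlapped. Flt4 over Kdr, which encodes VEGFR-2, was 0.473 ± 0.100 in Experimental mice and 0.600 ± 0.0975 in Littermates, with 4 of 6 Experimental libraries below all Littermates.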
